A study of Homo sapiens with 4 samples.

Results

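Cancer-testis antigens were followed in A375 melanoma cells through 9 genes, the sperm protein genes *SPANXB1*, *SPANXC* and *SPANXD*, the G antigen gene *GAGE2A*, the melanoma antigen genes *MAGEA3*, *MAGEA6*, *MAGEA4* and *MAGEC1*, and *PRAME*. These 9 genes were selected on measured values of the same libraries, for the on-off pattern of the SPANX and GAGE genes between treatments, so their differences between treatments are a description. The count tables list 34241 gene identifiers, of which 23617 had at least 1 UMI (unique molecular identifier, a counted transcript molecule) in the filtered cells, and all 9 genes were among them.

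A375 is an established human melanoma line with the *BRAF* V600E mutation. S was the untreated, drug-sensitive culture, RV had been made resistant to the BRAF inhibitor vemurafenib, RVC to vemurafenib with the MEK inhibitor cobimetinib, and RVT to vemurafenib with the MEK inhibitor trametinib. The resistant cultures had stood under inhibitor for 10 to 14 days at a dose below the half-maximal inhibitory concentration, and inhibitor was taken off 24 h ahead of cell capture. Each culture of this cell line gave 1 droplet library with 10000 cells loaded, so the spread between cultures is unknown and no test between treatments was possible.

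After filtering, the libraries held 6334, 4177, 7628 and 8446 cells (S, RV, RVC, RVT), with median depths of 8799.5, 11553, 3958 and 2864 UMIs. Between 36 and 103 cell barcodes occurred in both libraries of a pair, where random draws from the barcode list would give 35.9 to 87.4. S and RV had been counted with a shared list of genes, and RVC and RVT with another, so a difference between these pairs cannot be told apart from a difference in annotation. The melanocyte pigment genes *MLANA*, *PMEL*, *TYR* and *DCT* stayed below 0.5 CPM (UMIs of a gene per 1000000 UMIs of its library) everywhere. *TYR* was at 0 in every library. The pigment gene *TYRP1* went the other way, with 0.0684, 0.0191, 4.73 (156 UMIs) and 1.73 CPM in S, RV, RVC and RVT. The melanocyte gene *MITF* had 9.77, 20.01, 8.13 and 41.9 CPM. The neural crest gene *SOX10* had 86.5, 39.9, 0 and 19.7 CPM in S, RV, RVC and RVT, and *S100B* had 32.8, 6.96, 0 and 0.236, the last from 6 UMIs. Of 7 fibroblast genes, 6 reached 1 CPM in RVC and in RVT against 1 in S and in RV, with summed levels of 2.61, 2.27, 186 and 44.3 CPM (S, RV, RVC, RVT), most of the RVC sum being the collagen gene *COL3A1* at 121 CPM. The whole list of 12 melanocyte genes summed to 140, 70.4, 16.6 and 81.1 CPM. Of 9 genes of undifferentiated melanoma, 9, 9, 8 and 8 reached 1 CPM in S, RV, RVC and RVT, with sums of 3540, 3689, 1721 and 1017 CPM. Most of the S and RV sums was the vimentin gene *VIM*, at 2433, 2590, 559 and 331 CPM in S, RV, RVC and RVT. *CD63* on the same list was highest in RVC, with 688, 682, 946 and 426 CPM. Lists of 7 immune and endothelial genes and of 10 germ cell genes summed to at most 1.40 CPM in any library, and 7 epithelial genes to at most 15.4. RVC thus had no UMI of *SOX10* or *S100B* but the most *TYRP1*, RVT nearly none of *S100B*, and both carried fibroblast transcripts. The paper states that the identity of its A375 cells was established before the experiments, and mentions no such check on the resistant cultures. Whether the cells of these libraries are A375 as labelled was not tested and is in question, most of all for RVC, and their values below are those of the libraries labelled RVC and RVT. Only the ratio of RV to S involves neither. The part of these library differences in the levels below was not tested.

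Cancer-testis antigens are proteins that healthy adults make chiefly in germ cells of the testis and that many tumours make again. Their genes are mostly X-linked and come in families of near-identical copies, and in other tissues they are kept silent in large part by methylation of CpG dinucleotides at their promoters. SPANX proteins lie at the nucleus of sperm, GAGE proteins are small disordered proteins of germ cells, MAGE-A proteins bind and steer RING-type ubiquitin ligases such as TRIM28, and PRAME is a repressor of retinoic acid receptor signalling and part of a ubiquitin ligase. Peptides of many of them are shown on HLA class I molecules, and melanoma is a tumour in which MAGE and PRAME expression is well known.

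Promoter sequences are shown for the SPANX and GAGE genes, whose levels swung between libraries, and for *MAGEA3* as a gene that did not swing with them. Each is the RefSeq window on GRCh38.p14 from 250 bases before to 50 bases after an annotated transcription start, read 5′ to 3′ on the gene's strand, with CpG dinucleotides in capitals. *SPANXB1* lies at chrX:141002344-141002643 on the plus strand, *SPANXC* at chrX:141242468-141242767 on the minus strand, *SPANXD* at chrX:141698690-141698989 on the minus strand, *GAGE2A* at chrX:49589246-49589545 on the plus strand and *MAGEA3* at chrX:152698544-152698843 on the plus strand.
SPANXB1: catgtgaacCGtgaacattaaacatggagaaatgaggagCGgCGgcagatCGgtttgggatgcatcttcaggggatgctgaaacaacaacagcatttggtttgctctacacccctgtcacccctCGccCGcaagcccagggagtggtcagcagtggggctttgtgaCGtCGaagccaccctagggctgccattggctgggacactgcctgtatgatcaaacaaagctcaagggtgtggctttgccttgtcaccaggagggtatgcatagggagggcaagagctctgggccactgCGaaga
SPANXC: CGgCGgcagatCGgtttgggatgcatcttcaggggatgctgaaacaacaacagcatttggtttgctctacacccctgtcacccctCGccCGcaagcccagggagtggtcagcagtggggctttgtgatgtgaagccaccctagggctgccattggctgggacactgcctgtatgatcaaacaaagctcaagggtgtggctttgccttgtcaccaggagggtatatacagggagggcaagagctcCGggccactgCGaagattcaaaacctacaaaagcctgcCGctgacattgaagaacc
SPANXD: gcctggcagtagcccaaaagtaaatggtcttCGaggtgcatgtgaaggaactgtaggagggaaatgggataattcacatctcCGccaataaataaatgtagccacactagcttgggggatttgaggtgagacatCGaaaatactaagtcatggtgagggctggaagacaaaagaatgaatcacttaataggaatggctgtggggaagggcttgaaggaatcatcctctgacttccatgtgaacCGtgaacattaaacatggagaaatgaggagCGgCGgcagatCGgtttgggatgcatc
GAGE2A: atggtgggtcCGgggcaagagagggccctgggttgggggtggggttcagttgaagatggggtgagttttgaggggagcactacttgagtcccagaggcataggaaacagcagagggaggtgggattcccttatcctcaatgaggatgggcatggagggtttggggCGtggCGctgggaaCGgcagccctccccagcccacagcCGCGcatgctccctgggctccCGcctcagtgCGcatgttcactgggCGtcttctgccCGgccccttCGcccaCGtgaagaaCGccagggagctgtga
MAGEA3: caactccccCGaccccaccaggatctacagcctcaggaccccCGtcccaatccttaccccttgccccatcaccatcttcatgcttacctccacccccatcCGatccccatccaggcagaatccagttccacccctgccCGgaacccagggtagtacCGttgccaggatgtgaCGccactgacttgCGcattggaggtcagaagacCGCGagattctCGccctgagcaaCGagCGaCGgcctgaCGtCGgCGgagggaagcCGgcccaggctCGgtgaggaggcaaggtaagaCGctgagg

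The *SPANXB1* and *SPANXC* windows overlapped in 261 aligned bases, 255 of which were identical, and the last 66 bases of the *SPANXD* window were identical to the first 66 of *SPANXB1*, because the annotated *SPANXD* start lies further upstream. The windows of *MAGEA3* and *MAGEA6* were the same in 300 of 300 bases, as were that of *GAGE2A* and a window of its neighbour *GAGE1*. CpG dinucleotides numbered 9 in *SPANXB1*, 8 in *SPANXC*, 7 in *SPANXD*, 13 in *GAGE2A* and 19 in *MAGEA3* and *MAGEA6*, beside a median of 14 over 35116 promoter windows. The 5 *MAGEA4* windows held 10, 11, 13, 15 and 15, the 3 *PRAME* windows 13, 12 and 4, and the *MAGEC1* window 14. The counts thus overlapped between the SPANX and GAGE genes and the other members, and methylation was not measured. On both strands the ETS-type core CCGGAA occurred once in *MAGEA3* and *MAGEA6* and in the first of the 3 *PRAME* windows, against 17.2% of all windows. The E-box CACGTG, which holds a CpG, occurred once in *GAGE2A* and in 7.26% of all windows. The AP-1 site TGACTCA (4.95% of all windows) and TATAAA (11.5%) were in no window of the 9 genes.

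The copies also limit the counting, since reads that match several genes alike are usually dropped. Of all stretches of 90 bases in the last 500 bases of the longest transcript (the whole transcript where shorter), 96.3% occurred in no other gene for *SPANXB1*, 39.3% for *SPANXC*, 56.7% for *SPANXD*, 42.1% for *GAGE2A*, and 24.6% for *MAGEA3* and likewise for *MAGEA6*. For *MAGEA4*, *MAGEC1* and *PRAME* it was 100%. Levels of *SPANXC*, *SPANXD*, *GAGE2A*, *MAGEA3* and *MAGEA6* are therefore uncertain as to which copy they count, and *GAGE2A* shares stretches with 12 other GAGE genes and lies inside the annotated *GAGE1* gene on the same strand.

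*SPANXB1* and *SPANXC* were high in RV and RVT, low to moderate in S and nearly silent in RVC, while *SPANXD* was low in every library. The S library held 202 CPM of *SPANXB1* (95% interval 199 to 206), against 1297 (1287 to 1307) for RV, 0.243 (0.105 to 0.478, 8 UMIs) for RVC and 1869 (1852 to 1886) for RVT. All such intervals, which are exact Poisson ones for levels, exact binomial splits for ratios and Clopper-Pearson ones for percentages, cover counting error only. The 4 libraries did not overlap in them, and the order was RVT, RV, S and RVC. Against S, *SPANXB1* was 6.41-fold higher in RV (6.28 to 6.54), 9.23-fold higher in RVT (9.05 to 9.42) and 834-fold lower in RVC (423 to 1933). Between the dual-resistant libraries, which share depth and annotation more closely, RVT exceeded RVC 7703-fold (3909 to 17843).

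*SPANXC* followed the same order, at 35.2 CPM for S (33.7 to 36.8), 188 for RV (184 to 191), 0.0303 for RVC (1 UMI) and 475 for RVT (467 to 484). It was 5.33-fold higher in RV (5.08 to 5.59) and 13.5-fold higher in RVT (12.9 to 14.1) than in S. The 1161-fold lower level in RVC has an interval of 208 to 45893, since it rests on 1 UMI. *SPANXD* was the exception in order, being highest in RV. Its level was 0.1196 CPM for S (7 UMIs), 7.53 for RV (6.81 to 8.31), 0.0303 for RVC (1 UMI) and 1.81 for RVT (1.33 to 2.42). Its RV level was 62.9 times that of S (30.3 to 158) and its RVT level 15.1 times (6.79 to 39.8), while the interval of its 3.94-fold lower level in RVC (0.507 to 178) took in both directions.

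*GAGE2A* showed the SPANX order at 4.89 CPM for S (4.34 to 5.49), 97.7 for RV (95.02 to 100.4), 0.364 for RVC (12 UMIs, 0.188 to 0.636) and 155 for RVT (150.4 to 160.2). No intervals overlapped. It was 19.98-fold higher in RV (17.7 to 22.6), 31.8-fold higher in RVT (28.2 to 35.9) and 13.4-fold lower in RVC (7.57 to 26.3) than in S. *GAGE1*, its overlapping neighbour, had 17.3, 59.1, 0 and 234 CPM in S, RV, RVC and RVT, which made RVC at least 190-fold lower than S with the 3 UMIs that a count of 0 allows. Counted as a sum, *GAGE2A* and *GAGE1* were 7.08-fold higher in RV and 17.6-fold higher in RVT than in S, beside 19.98-fold and 31.8-fold for *GAGE2A* alone. How reads were split between the pair was not tested.

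The MAGE-A genes and *PRAME* behaved differently, since none of the well-counted ones was lost in RVC. *MAGEA4* stood at 252 CPM for S (248 to 256), 313 for RV (308 to 317), 767 for RVC (758 to 777) and 560 for RVT (551 to 569), so RVC, the library with 10 UMIs of the 3 SPANX members in all, had the most. *MAGEA3* stood at 57.3 CPM for S (55.4 to 59.3), 80.7 for RV (78.3 to 83.2), 120 for RVC (116 to 123) and 137 for RVT (132 to 142). *PRAME*, the only autosomal gene among the 9, stood at 35.0 CPM for S (33.5 to 36.5), 41.0 for RV (39.3 to 42.8), 57.2 for RVC (54.6 to 59.8) and 67.5 for RVT (64.3 to 70.7).

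All 3 were thus lowest in S and higher in each resistant library, by at most 1.41-fold in RV. In RVC *MAGEA4* was 3.04-fold (2.98 to 3.10), *MAGEA3* 2.09-fold (1.99 to 2.19) and *PRAME* 1.64-fold (1.54 to 1.74) above S. In RVT they were 2.22-fold (2.17 to 2.27), 2.39-fold (2.28 to 2.51) and 1.93-fold (1.81 to 2.06) above S. These moderate ratios depend on scaling. TMM factors, which moved every log2 ratio to S by -0.19 in RVC and -0.49 in RVT, put *MAGEA3* at 1.83-fold in RVC and 1.70-fold in RVT and *MAGEA4* at 1.58-fold in RVT, below 2-fold.

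*MAGEA6*, the near-copy of *MAGEA3*, went the other way in the dual-resistant libraries. It stood at 2.89 CPM for S (2.47 to 3.36), 4.08 for RV (3.55 to 4.66), 0.879 for RVC (29 UMIs, 0.589 to 1.26) and 0.433 for RVT (11 UMIs, 0.216 to 0.775). It was 3.28-fold lower in RVC (2.21 to 5.05) and 6.67-fold lower in RVT (3.63 to 13.6) than in S, and RVC and RVT overlapped. The lower level lies on the boundary between the annotations, and the sum of *MAGEA3* and *MAGEA6*, 60.2, 84.8, 121 and 137 CPM in S, RV, RVC and RVT, followed *MAGEA3*. *MAGEC1* was barely detected, with 4, 1, 2 and 8 UMIs in S, RV, RVC and RVT, and its RVT level was 4.61 times that of S (1.23 to 20.9) and 5.19 times that of RVC (1.04 to 50.2).

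**Figure D1:**
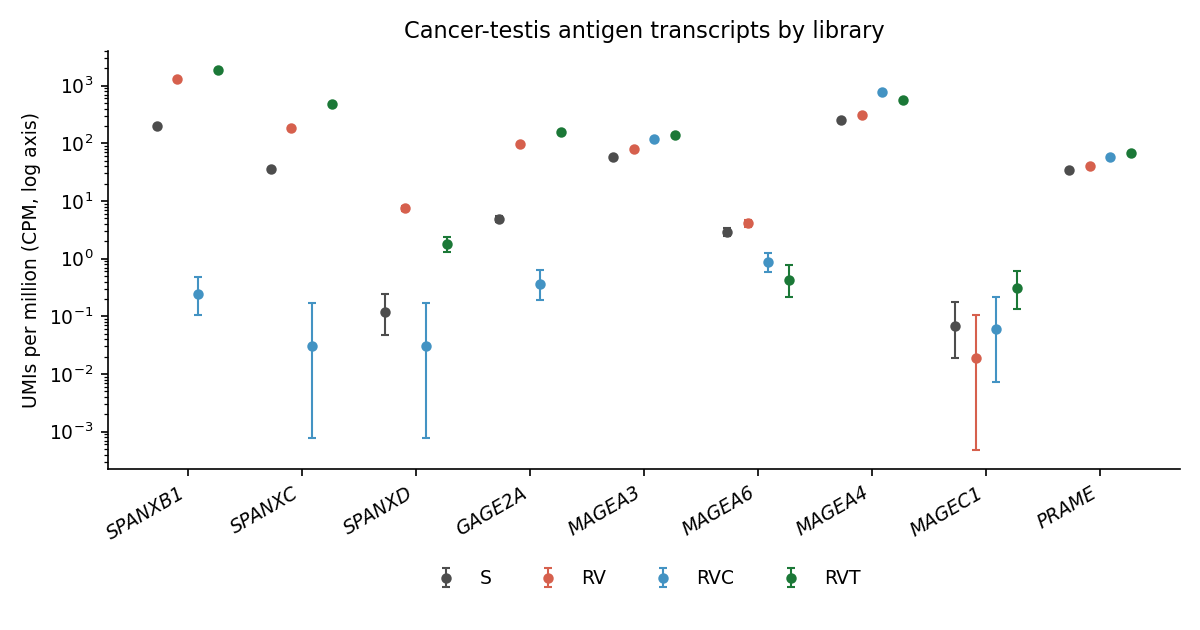
CPM (log axis) of the 9 cancer-testis antigen genes in the S, RV, RVC and RVT libraries, with exact Poisson 95% intervals as bars. *SPANXB1*, *SPANXC* and *GAGE2A* fall below 1 CPM in RVC and are highest in RVT, whereas *MAGEA3*, *MAGEA4* and *PRAME* stay above 30 CPM everywhere.

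Counted at 2-fold among genes with at least 10 UMIs over both libraries, 4 of 8 measured members were higher in RV than in S and 0 lower, beside 7.09% and 5.95% of all 16555 genes. In RVC 2 of 7 were higher and 4 lower, beside 25.3% and 24.3% of 16338 genes. In RVT 7 of 9 were higher and 1 lower, beside 35.3% and 22.9% of 16378 genes. RVT over RVC gave 5 of 9 higher and 1 lower, beside 25.2% and 14.5% of 15850 genes. As the members were chosen for these contrasts, nothing is read from their counts. TMM scaling turned the split over all genes in RVT to 23.9% higher and 31.1% lower, and in RVT over RVC to 17.5% and 19.2%, while the members then counted 5 higher and 1 lower in both contrasts.

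Differences in level can come from more cells with the transcript or from more molecules per cell, and the cells were examined for this after each was thinned at random to 1500 UMIs, which left out 397 RVC cells and 844 RVT cells. A *SPANXB1* UMI was found in 17.1% of the thinned cells for S (16.2 to 18.1), 72.0% for RV (70.6 to 73.3), 0.0415% for RVC (3 of 7231) and 86.9% for RVT (86.1 to 87.6). Without thinning the shares were 36.6%, 96.0%, 0.105% and 93.9%. As these are cultures of 1 line, a background share from free RNA, read in cells known not to express the genes, was not available for comparison. Cells with a UMI are not a count of expressing cells, since the share moves with depth.

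*SPANXC* was found in 4.31% of the thinned cells for S, 22.0% for RV and 46.5% for RVT, and in 0 of 7231 for RVC, where a floor of 3 counts allows up to 0.0415% of cells with a UMI (Clopper-Pearson upper bound 0.0510%). *GAGE2A* was found in 0.758%, 12.4%, 0.0553% and 19.7% of thinned S, RV, RVC and RVT cells. *MAGEA4* was found in 31.4%, 36.0%, 67.2% and 56.1%, *MAGEA3* in 7.499%, 10.4%, 16.2% and 18.4%, and *PRAME* in 4.96%, 5.94%, 7.84% and 9.63%. For these 3 genes the order of the shares was that of the CPM. *SPANXD* reached 1.01% of thinned cells in RV only, and *MAGEA6* stayed below 0.8% in each library. *MAGEC1* was in at most 3 thinned cells of a library.

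**Figure D2:**
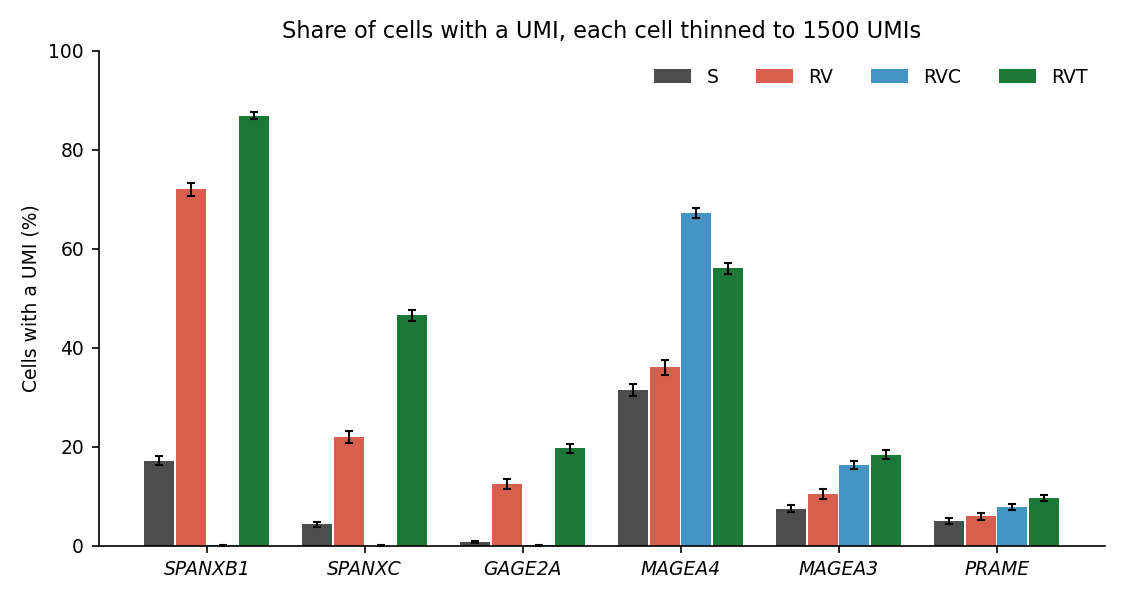
Percent of cells with at least 1 UMI of 6 genes in S, RV, RVC and RVT after each cell was thinned to 1500 UMIs, with Clopper-Pearson 95% intervals. The *SPANXB1* share is 17.1% for S, 72.0% for RV and 86.9% for RVT with 3 positive RVC cells, whereas *MAGEA4* is highest in RVC.

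The number of *SPANXB1* UMIs per thinned cell was more uneven than sampling of a common level would give. In S 11.2% of cells had 1 UMI, 5.72% had 2 to 4 and 0.221% had 5 or more, and 82.9% had none, where a Poisson distribution of the same mean gives 76.9%. The variance over the mean, which is near 1 for a level shared by all cells, was 1.78 in S, 2.87 in RV and 2.08 in RVT. The RV value rests in part on 1 cell, without which it was 1.90. In RVT 46.4% of cells had 2 to 4 UMIs and 19.6% had 5 or more. The ratio was 1.16, 1.18 and 1.30 for *SPANXC* and 1.03, 1.17 and 1.08 for *GAGE2A* in S, RV and RVT, and between 1.00 and 1.11 for *MAGEA4*, *MAGEA3* and *PRAME* in every library. For the same spread between cells this ratio nears 1 as the mean count falls, so genes of different level are not ranked by it. *MAGEA4* in RVC, at 1.11, had 32.8% of cells without a UMI where a Poisson distribution gives 30.9%.

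**Figure D3:**
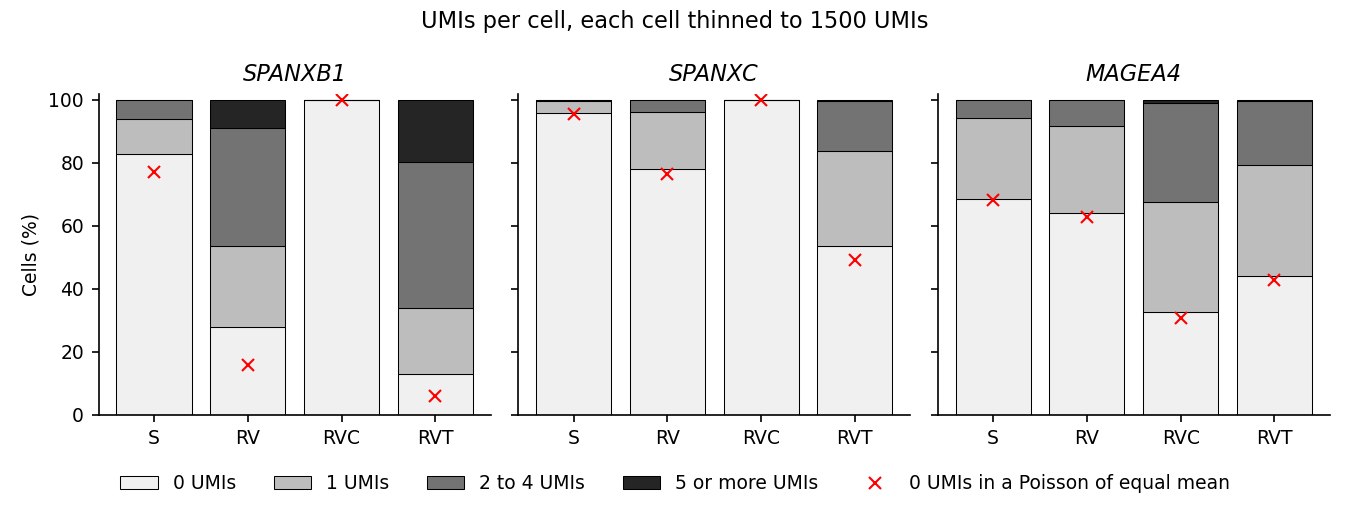
Percent of thinned cells with 0, 1, 2 to 4, and 5 or more UMIs of *SPANXB1*, *SPANXC* and *MAGEA4* in each library, with red crosses at the percent without a UMI in a Poisson distribution of equal mean. For *SPANXB1* the share without a UMI exceeds the cross in S (82.9% against 76.9%), RV and RVT, while for *MAGEA4* the widest gap is in RVC (32.8% against 30.9%).

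Within cells, *SPANXB1* and *SPANXC* occurred together. In thinned S cells 15.4% of those with a *SPANXB1* UMI had a *SPANXC* UMI (13.3 to 17.7), against 2.02% of those without (1.66 to 2.44). Both were found in 2.64% of S cells, 3.57 times the product of their shares, and the phi coefficient, the correlation of presence and absence over cells, was 0.25 over 6334 cells of this library. In RV 26.1% of cells with and 11.3% of cells without *SPANXB1* had *SPANXC* (phi 0.16), and in RVT 48.8% and 31.3% (phi 0.12). The ratio to the product was 1.19 in RV and 1.05 in RVT, where the high share of cells with *SPANXB1* caps it.

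Pairs were computed where both genes were in at least 1% of thinned cells, which left out *GAGE2A* and *SPANXD* in S. *SPANXD*, found in 42 thinned RV cells, had *SPANXB1* in 39 of them, and was in 1.30% of RV cells with *SPANXB1* (0.924 to 1.77) against 0.256% without (0.0529 to 0.747), 1.29 times the product. *SPANXB1* with *MAGEA4*, *MAGEA3* or *PRAME* was at 1.01, 0.93 and 1.00 times the product in S. In RV 37.3% of cells with *SPANXB1* (35.5 to 39.0) and 32.7% of cells without (30.05 to 35.5) had *MAGEA4*, with a phi of 0.04, and in RVT 56.7% (55.5 to 57.9) and 51.7% (48.6 to 54.9), with a phi of 0.03. *SPANXB1* with *GAGE2A*, which was higher in the same libraries, was at 0.996 times the product in RV and 1.01 times in RVT. *SPANXC* with *SPANXD* in RV was at 1.84 times, from 17 cells with both. *SPANXC* with *GAGE2A* was at 0.824 times in RV, where 10.2% of cells with *SPANXC* (8.35 to 12.4) and 13.0% of cells without (11.9 to 14.2) had *GAGE2A*, and at 1.05 times in RVT. Where 1 gene is in most cells, as *SPANXB1* in RV and RVT, the ratio has little room to exceed 1. In RVC only *MAGEA4*, *MAGEA3* and *PRAME* were in at least 1% of cells, and their pairs stood between 1.00 and 1.08 times the product.

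The genes most like *SPANXB1* over thinned S cells, among 2511 genes in at least 5% of them and leaving out members, were the hair keratin gene *KRT81* (phi 0.44), the simple epithelial keratin gene *KRT7* (0.34), *C19orf33* (0.27), the YAP target *ANKRD1* (0.21) and the caveolin gene *CAV1* (0.19). *KRT81* was found in 43.8% of those cells. In RV the first was *KRT7* again (0.19) and in RVT the thrombospondin gene *THBS1* (0.11). *SPANXD* was in too few cells of every library for such a comparison. Like *SPANXB1*, *KRT81*, *KRT7* and *ANKRD1* were almost absent in RVC, at 0.0303, 1.40 and 0.243 CPM, but unlike it they were lower in RVT (93.4, 25.6 and 2.76) than in S (1181, 178 and 102). *CAV1* had 513 CPM in RVC and 89.4 in S.

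Members were then compared between S cells with and without a *KRT81* UMI. As *KRT81* ranked first for likeness to *SPANXB1* among 2511 genes in these same cells, the *SPANXB1* split restates that likeness and is a description. In the 2775 thinned S cells with *KRT81*, *SPANXB1* had 373 CPM (355 to 392), and in the 3559 without, 20.4 (16.8 to 24.6), 18.3 times less. *SPANXC* had 66.8 (59.2 to 75.1) and 4.12 CPM (2.58 to 6.24), 16.2 times less. *MAGEA4*, *MAGEA3* and *PRAME* did not part in this way. *MAGEA4* had 270 and 243 CPM, *MAGEA3* 49.5 and 56.4, and *PRAME* 32.9 and 35.8, with overlapping intervals for each gene. *GAGE2A* had 5.77 and 4.68 CPM, also with overlapping intervals, but from only 24 and 25 UMIs. Its overlapping neighbour *GAGE1* had 34.4 and 7.87 CPM in the same cells. How reads were split between the pair was not tested, so *GAGE2A* is not read here.

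In RV *SPANXB1* had 1405 CPM in cells with a *KRT81* UMI and 1123 in cells without, and in RVT 2476.5 and 1780. Cells without a UMI after thinning can still carry the transcript. A *KRT81* UMI was in 64.0% of RV cells before thinning and 36.9% after, and in 20.2% and 12.1% of RVT cells. In S the shares were 59.3% and 43.8%. The size of the split is therefore not compared between libraries. RV cells without a *KRT81* UMI, a group that includes carriers of it, had 1123 CPM against 373 in S cells with one. Split by *SOX10* instead, S cells with a UMI of this neural crest gene had 88.7 CPM of *SPANXB1* (72.4 to 107) and cells without had 187 (178 to 196), and in RV the values were 822 and 1256. In RVT they were 2054 (1899 to 2218) and 1859 (1834 to 1885). The variance over the mean of *SPANXB1* was 1.78 in S, 2.87 in RV and 2.08 in RVT. Its Poisson intervals are therefore too narrow for the spread between cells in every split, that by *KRT81* included. The order in RVT, where the values by *SOX10* lie closest, is not read. A *SOX10* UMI was in 49.2% of S cells before thinning and 12.3% after, so cells without one include carriers here too. S cells with a UMI of the proliferation gene *TOP2A* had 249 CPM of *SPANXB1* and those without 167, in RV both had 1227, and in RVT they had 2477 and 1834.

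**Figure D4:**
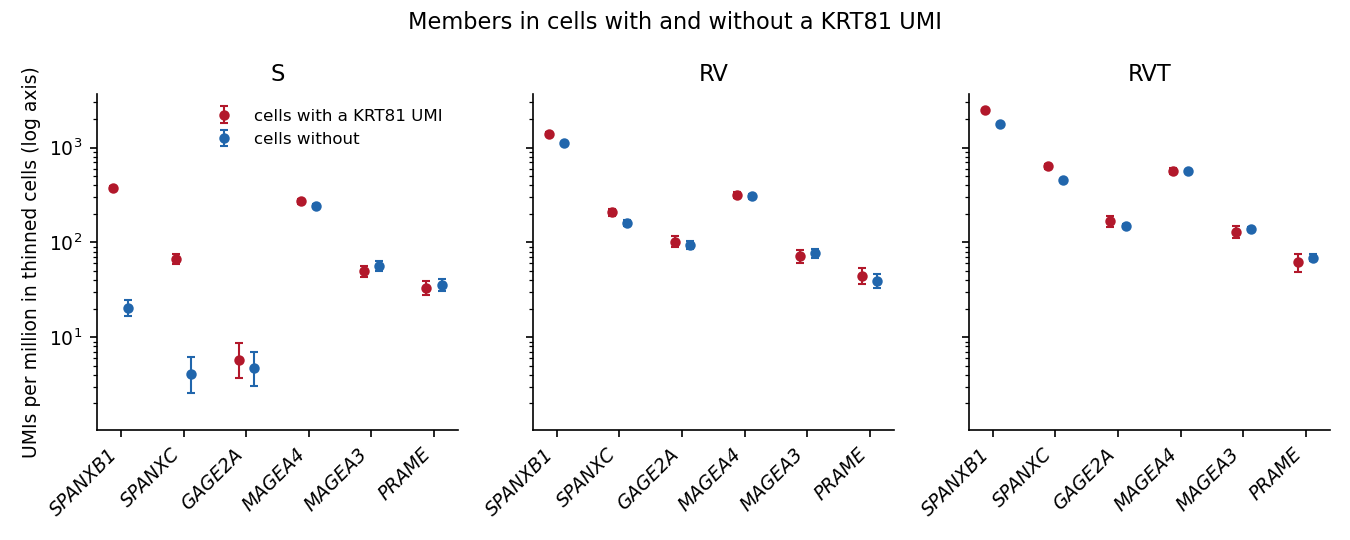
CPM (log axis) of 6 genes in thinned cells with (red) and without (blue) a *KRT81* UMI in S, RV and RVT, with exact Poisson 95% intervals. In S *SPANXB1* and *SPANXC* differ 18.3-fold and 16.2-fold between these cells and *MAGEA4*, *MAGEA3* and *PRAME* barely, and in RV and RVT the paired values of each gene lie within 1.41-fold. Cells without a UMI can still carry *KRT81*, so the sizes are not compared between libraries.

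Among related genes, lists of cancer-testis genes outside the 9 members held 153 genes, 141 of them in the files. With at least 10 UMIs over both libraries, 54 were measured for RV over S, 13 of them 2-fold higher and 5 lower, with a median log2 ratio of 0.35 beside 0.03 for all genes. In RVC 18 of 50 were higher and 15 lower (median 0.20 beside 0.18). In RVT 22 of 53 were higher and 14 lower (0.55 beside 0.40), which TMM scaling turned into 16 higher and 19 lower. Among all genes 7.09%, 25.3% and 35.3% were higher and 5.95%, 24.3% and 22.9% lower in RV, RVC and RVT. With TMM scaling the shares in RVT were 23.9% and 31.1%. Listed genes were found in both directions in each library.

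In the SPANX branch 5 genes were measured for RV over S, 3 of them the members chosen for this pattern. The other two, *SPANXA2-OT1* and *SPANXN1*, were also over 2-fold higher in RV, where 7.09% of all genes were. *SPANXN1*, named because it departs from the pattern after its values were seen, had 12, 56, 0 and 0 UMIs in S, RV, RVC and RVT, so that unlike the members it was not detected in RVT. *SPANXA2-OT1*, a transcript that spans *SPANXA1* and *SPANXA2*, had 0.0684, 9.34, 0 and 39.0 CPM, and *SPANXA1* and *SPANXA2* had at most 2 UMIs in a library. Of the P antigen genes, *PAGE5* had 491, 481, 1077 and 1373 CPM in S, RV, RVC and RVT. *PAGE2* had 121, 135, 284 and 4.49 CPM, so that it was 27.0-fold lower in RVT than in S (22.5 to 32.8) in the library where *GAGE2A* and *GAGE1* were highest.

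Of the type I MAGE genes and the CSAG genes that lie among them, members included, 1 of 10 measured was 2-fold higher and 0 lower in RV, 7 of 10 higher and 1 lower in RVC, and 9 of 11 higher and 1 lower in RVT, beside 7.09%, 25.3% and 35.3% higher and 5.95%, 24.3% and 22.9% lower among all genes. In RVC *MAGEA10* was 2.82-fold, *MAGEC2* 2.51-fold, *CSAG1* 2.30-fold, *MAGEA11* 1.95-fold and *MAGEA12* 1.87-fold above S, and in RVT 4.44-fold, 2.95-fold, 2.75-fold, 5.74-fold and 2.11-fold. None of these genes passed 2-fold in RV. These counts and ratios were not redone with TMM factors, which lower every ratio to S. With them *MAGEA3* stood at 1.83-fold in RVC and 1.70-fold in RVT, and *MAGEA4* at 1.58-fold in RVT. Fewer than 7 in RVC and 9 in RVT would then be 2-fold higher, beside 20.1% and 23.9% of all genes. *CSAG1* and *MAGEA12* lie between *MAGEA3* and *MAGEA6*, and of these genes *MAGEA6* alone was lower than S in RVC and RVT.

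The VCX genes encode basic proteins of male germ cells. All 3 named ones were lower in RVC than in S, and *VCX* and *VCX2* but not *VCX3B* were over 2-fold higher in RV. *VCX* had 7.997, 28.2, 0.0607 (2 UMIs) and 2.60 CPM, *VCX2* had 11.4, 33.7, 0.364 and 10.6, and *VCX3B* had 10.1, 11.3, 0.485 and 6.81. Within S cells *VCX* had 2.40 CPM in cells with *KRT81* and 11.4 in cells without, *VCX2* had 3.604 and 16.1, and *VCX3B* 9.13 and 12.4. *GAGE1* had 34.4 and 7.87 CPM, and was found in 5.90% of S cells with and 2.11% of S cells without a *SPANXB1* UMI. *CT83* likewise had 21.4 and 10.1 CPM.

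The other X-linked and autosomal genes with at least 10 CPM in a library gave no common direction. *CT83* had 14.8, 20.1, 10.9 and 23.2 CPM in S, RV, RVC and RVT. The interleukin-13 decoy receptor gene *IL13RA2* had 180, 157, 168 and 58.6. *LY6K*, a surface antigen gene on an autosome, had 88.5, 142, 20.02 and 24.0, and the oncofetal RNA-binding protein gene *IGF2BP3* had 27.6, 26.3, 73.6 and 80.2. *ODF2*, *SPA17*, *SPAG9* and *DCAF12* stayed within 2-fold of S in RV and RVC, and of them *DCAF12* reached 22.4 CPM in RVT from 9.52 in S.

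**Figure D5:**
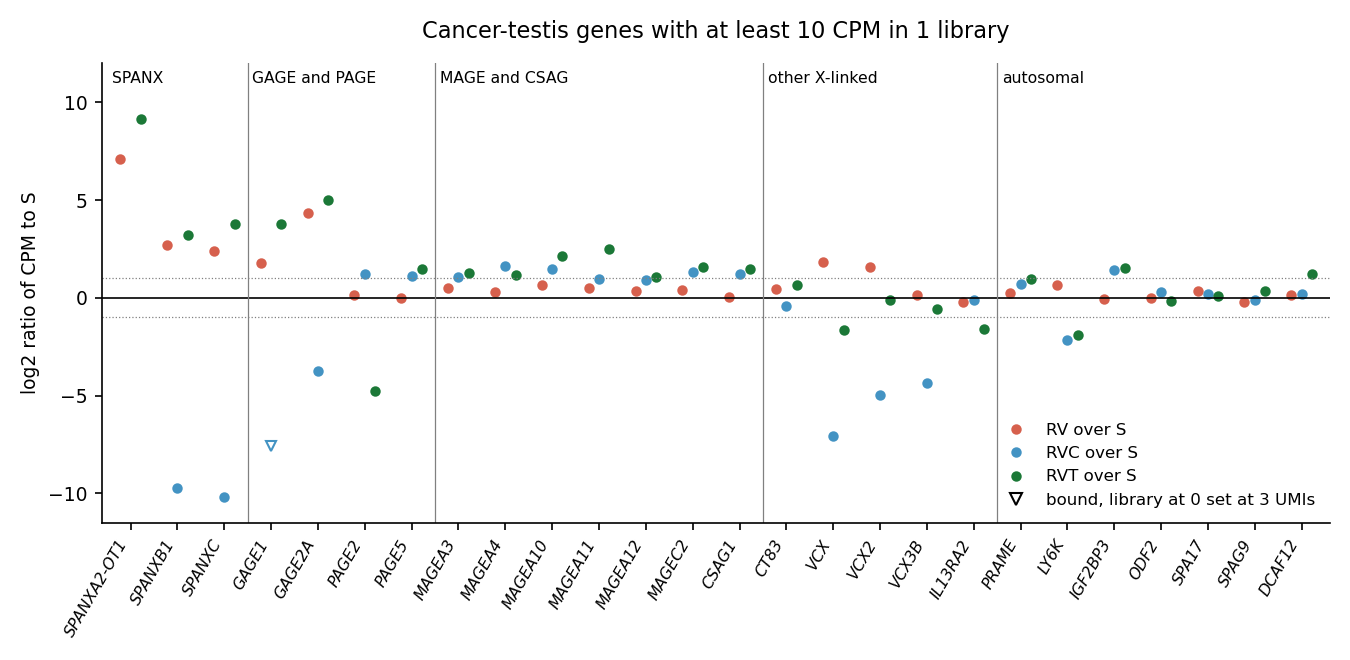
Log2 ratio of CPM to S in RV, RVC and RVT for the 26 cancer-testis genes with at least 10 CPM in 1 library, 6 of them members, grouped by family, with dotted lines at 2-fold and an open triangle for a bound; *SPANXA2-OT1* in RVC, with 0 UMIs against 4 in S, has no point. SPANX and GAGE genes part between RVC and the other libraries, whereas MAGE and CSAG genes lie near or above S in all 3.

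The genes that work with or on cancer-testis antigens were read beside them. Of 23 genes of DNA methylation and silencing, 0 were 2-fold higher or lower in RV, beside 7.09% higher and 5.95% lower among all genes, so that few calls would be found in a list of this size at the share of all genes. In RVC 5 were higher and 1 lower, and in RVT 7 were higher and 4 lower. These counts, and those of the lists that follow, stand beside 25.3% higher and 24.3% lower among all genes in RVC and 35.3% and 22.9% in RVT. The maintenance methyltransferase gene *DNMT1* had 92.7, 84.7, 47.9 and 26.5 CPM in S, RV, RVC and RVT, and the chromatin remodeller gene *ATRX* had 34.4, 32.5, 73.8 and 158. The *DNMT1* level was 1.94-fold below S in RVC, short of 2-fold, and 3.49-fold below in RVT. The DNA methyltransferase genes *DNMT3A* and *DNMT3B* did not share this fall, whereas the histone methyltransferase gene *EZH2*, given below, did. *DNMT3A* had 2.44, 1.85, 3.85 and 13.5 CPM, and *DNMT3B* had 0.205, 0.229, 1.64 and 0.394.

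Of 8 genes listed as partners of cancer-testis proteins, 0 passed 2-fold in RV, 1 was higher and 4 lower in RVC, and 1 was higher and 5 lower in RVT. *EZH2*, with 26.8, 28.3, 13.2 and 6.18 CPM in S, RV, RVC and RVT, is on this list and on the silencing list. Its lower calls in RVC and RVT thus count in both. The lamin gene *LMNA*, also on the partner list, had 315, 558, 72.5 and 110 CPM. The MAGE-binding ligase gene *TRIM28* had 46.7, 40.8, 25.02 and 20.01 CPM, and its target kinase gene *PRKAA1* had 13.7, 12.2, 31.6 and 38.5. Of 16 HLA class I presentation genes, 0 passed 2-fold in RV, 3 were higher and 1 lower in RVC, and 7 were higher and 2 lower in RVT. *B2M*, the common light chain, had 887, 1048, 3094 and 3821 CPM, and *HLA-B* had 115, 108, 429 and 618. The immunoproteasome gene *PSMB10* was lower, with 12.7, 18.6, 2.09 and 2.28 CPM. All 16 presentation genes lay within 2-fold of S in RV, as did 12 in RVC and 7 in RVT.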

How the data were processed

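A375 cells in 4 conditions were profiled with 1 droplet library each (10x Genomics Chromium v2). The authors made the libraries, demultiplexed with bcl2fastq 2.20.0.422 and counted with Cell Ranger, whose version and annotation are not given in the sources used here. The deposited count values are whole-number UMI counts per gene and barcode, without normalization. Cells with at least 500 genes and at most 20% mitochondrial UMIs were kept, and the highest scrublet scores (scanpy 1.11.5) were removed at 0.8% per 1000 barcodes, 359, 150, 687 and 870 barcodes in S, RV, RVC and RVT. scrublet's own threshold marked only 4, 2, 1 and 0 barcodes, so this number rests on the rate. Of 6695, 4328, 9266 and 10427 deposited barcodes in S, RV, RVC and RVT, 0, 0, 903 and 1084 had under 500 genes. The mitochondrial limit was exceeded in 2, 1, 478 and 580. The paper gives fewer cells than these barcodes for S and RV, and the same numbers for RVC and RVT. These differences lie on the same boundary as the gene lists. The filtered libraries held 58519152, 52461572, 32974745 and 25390117 UMIs in S, RV, RVC and RVT.

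UMIs were summed per gene and library and given as CPM. Ratios carry the interval of the exact binomial split of the UMIs. With 1 library per condition no test was run and no p-value was made. Members and gene lists were chosen with earlier results of these data known. Named were all members, genes of the cancer-testis lists with at least 10 CPM in a library, and the 5 genes with the highest phi with *SPANXB1* (and, had it reached 5% of cells, *SPANXD*). A further list of 12 ubiquitous MAGE-family genes, kept apart from the cancer-testis lists, is not described. Genes of the opening marker check and of the partner, silencing and presentation lists are examples chosen after their values were seen. Gene positions are from GENCODE 29, and promoters from RefSeq. Protein sequences were not used here. Computations used python 3.11.15, numpy 2.4.6, pandas 2.3.3, scipy 1.17.1, biopython 1.88 and matplotlib 3.10.9, with random seed 1, and TMM factors came from edgeR 4.0.16 in R 4.3.3. The ratios and the thinning were tested on simulated data. Alternatives were other cell filters, scalings, cell weights, folds, filters on low genes and thinning depths.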

Additional observations from a re-analysis of the deposited data

How the results depend on the processing

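The 36 ratios of members were recomputed under 7 alternatives of cell filter, scaling and cell weight, and *SPANXB1* in RV over S also without 1 RV cell, which gave 253 values, and 250 kept their direction. The 3 that did not were not past 2-fold in the first place, *MAGEC1* in RVC over S and *MAGEA3* and *PRAME* in RVT over RVC. The SPANX and GAGE directions held under these alternatives, *SPANXB1* ranging from 6.14 to 6.88 in RV over S and from 6.57 to 10.5 in RVT over S, and from 737-fold to 955-fold lower in RVC.

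The number of members 2-fold higher in RVC fell from 2 to 1 with TMM factors and with totals that leave out ribosomal and mitochondrial genes, and to 0 at a fold of 4. The number lower in RVT than in RVC fell from 1 to 0 with totals without ribosomal and mitochondrial genes, with equal weight for every cell and at a fold of 4. Without a filter on low counts 1 member, *MAGEC1*, counted as lower in RV, from 1 UMI against 4. Other cancer-testis genes lower in RV fell from 5 to 3 with all deposited barcodes and without doublet removal. Thinned to 1000 UMIs, the share of cells with a *SPANXB1* UMI was 13.1% in S, 60.3% in RV and 76.5% in RVT, as fewer UMIs per cell must give. *SPANXB1* with *SPANXC* then stood at 1.35 times the product in RV and 1.08 in RVT, and without thinning at 2.52 in S and 1.03 in RV. Without the RV cell of highest *SPANXB1* share, an alternative chosen after seeing the data, *SPANXB1* was 6.37-fold higher in RV than in S and its variance over mean was 1.90. No paired analysis was possible because each condition has 1 library, and no replicate was left out. Depth limits what RVC can show, since a count of 0 there allows up to 0.0910 CPM, against 0.0513 in S, 0.0572 in RV and 0.118 in RVT.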

Other observations

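Of 559 measured X-linked genes 10.4% were 2-fold higher and 5.55% lower for RV, 31.0% and 20.5% of 546 for RVC, and 44.5% and 18.5% of 562 for RVT, beside the shares of all genes given above. Within 500 kb of the SPANX cluster, *LDOC1*, a leucine zipper gene that lies between *SPANXB1* and *SPANXC*, had 32.7, 64.8, 11.9 and 98.9 CPM (S, RV, RVC, RVT), the order of *SPANXB1* with a narrower range. In S it had 44.2 CPM in cells with a *KRT81* UMI and 24.7 in cells without. The long non-coding RNA gene *LINC00632* in the same window had 12.5, 10.3, 20.1 and 34.6 CPM and did not share this order. *LDOC1* and *LINC00632* were chosen after their values were seen. Near *GAGE2A*, the membrane protein gene *PLP2* had 214, 299, 347 and 76.5 CPM and *WDR45* had 110, 111, 27.5 and 43.0, so neither followed *GAGE2A*.

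A single RV cell held 423 *SPANXB1* UMIs among 6855, or 6.17% of its UMIs, where the next highest RV cell had 1.48% and the library as a whole 0.130%. The same cell had 40 *SPANXC* UMIs and 1640 detected genes. Its doublet score was not among those removed.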
